A study of Mus musculus with 43 samples.

Results

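Folic acid (FA) feeds the one-carbon cycle, which makes S-adenosylmethionine, the methyl donor that DNA methyltransferases use to methylate cytosine at CpG dinucleotides. CpG islands at active promoters are normally unmethylated, whereas most other CpGs of the genome are methylated, and in the chronically inflamed or neoplastic colon both patterns are known to shift. DREAM, the assay used here, reads CpGs within the recognition sequence CCCGGG. SmaI, which a methylated CpG blocks, cuts first and leaves a blunt end, and XmaI, which cuts regardless of methylation, follows and leaves a different end, so that the end of each read tells whether that copy was methylated.

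The comparison was of laser-microdissected non-neoplastic (ND) colon cells of the second cohort, called epithelium here. It was between mice fed 8 mg/kg FA (8ND, 6 libraries) and mice fed 0 mg/kg FA (0ND, 6 libraries). These 12 libraries, chosen by the cohort, tissue and diet in their labels, are part of 43 in the series, and each came from a different mouse. All 12 animals were female Swiss Webster mice that ate the same FA-replete chow at first, received the carcinogen azoxymethane (AOM) and repeated cycles of dextran sulfate sodium (DSS) to induce colitis, were given their 0 or 8 mg/kg FA diet for 16 weeks and were killed at 27 weeks of age. There is no untreated epithelium among these groups, so that each difference below is between 2 diets in colitic, carcinogen-treated mice. DNA was from formalin-fixed, paraffin-embedded sections, and microdissected cells can hold more than 1 cell type, whose shares the methylation percentages alone do not give. The study assayed epithelial cells alone and also epithelium with the lamina propria. The titles of the libraries say non-neoplastic cells and do not tell which of these either cohort holds.

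The deposited tables list 173449 CCCGGG sites on the mouse build mm9 and 18 spiked standards, with read counts, a raw methylation percentage and a percentage adjusted with the standards. Adjusted percentages are used unless raw ones are named. A site was compared when it had 20 or more reads in each of the 12 libraries, which left 9666 sites (5.57% of those listed). Reads on sites ran from 1774213 to 6876845 per library in 8ND and from 2863002 to 5873580 in 0ND, and the median number of reads at a compared site from 86 to 321 per library. Sites are given by position on mm9. No gene is assigned to them, because the genome used here is of a later build.

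The library labelled 8ND of mouse 1856 stood apart from the other 11. Its breadth, the number of sites with 20 or more reads, was 48630, while the other 5 8ND libraries had 15893 to 21585 and the 6 0ND libraries 17754 to 24475. Lesion (polypoid dysplasia) libraries of the 8 mg/kg group in the same cohort had 47798 to 54855, and an 8ND library of the same mouse in the first cohort had 20218. In the 1856 library 41.3% of its own sites had another listed site within 350 bases, against 61.2% to 98.5% in the other 11 epithelium libraries and 37.3% to 44.1% in the 8 mg/kg lesions. Sites at which 0 mg/kg lesions and 0ND of this cohort differed by more than 20 points were also read in it, a choice that fixes the level of 0ND but not of 8ND. At the 31 sites higher in those lesions it averaged 47.4%, above the 23.3% to 38.9% of the other 11 epithelium libraries and within the 43.7% to 50.0% of the 8 mg/kg lesions. At the 275 sites lower in those lesions it averaged 57.6%, inside the 56.2% to 66.7% of the other 8ND libraries and above the 40.8% to 54.4% of the 8 mg/kg lesions. The library thus lay with lesions in its breadth and at the sites higher in lesions, and with epithelium at the sites lower in them. Breadth also depends on the number of reads on sites, which was 6876845 in this library. The other 11 epithelium libraries had 1774213 to 5873580 and the 8 mg/kg lesions 4892730 to 13960168. At equal read totals its breadth was 17483 sites, and that of the other 8ND libraries 14020 to 16167. The part of depth in its likeness to lesions was not tested. Calls, means over the compared and own sites, breadth and averages by level of the site are given with and without it. Other results include it, such as correlations within 8ND, those of the library kind that holds it, and the comparison of SDs.

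The 12 libraries also came in 2 kinds, divided at 8% of the reads on sites falling on the 100 most-read sites. In 6 libraries, 3 per diet, these sites took 8.76% to 10.2%, and spiked standards took 6.98% to 24.3% of all reads. They are called concentrated here and are 8ND mice 1830, 1848 and 1858 and 0ND mice 1805, 1808 and 1820. In the remaining 6, 3 per diet and with mouse 1856 among them, these shares were 4.70% to 6.29% and 34.3% to 52.7%. They are called spread. Because each kind held 3 libraries of each diet, diet could be compared within a kind.

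The data were first asked which sites changed. A site was called when the unadjusted p of a test of the 2 means (two-sided, variances taken as equal) was under 0.05 and the means differed by more than 5 percentage points, the criteria of the study's methods. Of the 9666 sites, 141 were called (1.46%), of which 127 were lower in 8ND (1.31%) and 14 were higher (0.145%). Lower sites were therefore 90.1% of the calls (95% Wilson interval 84.0% to 94.0%, which treats sites as independent although neighbours are not). The 127 lower sites had a median difference of -17.4 points and a median 0ND mean of 64.8%, and the 14 higher sites a median difference of 9.90 points and a median 0ND mean of 80.9%. With limma, 179 sites had an unadjusted p under 0.05 and 144 met both criteria, 141 of them shared with the calls above. None passed Benjamini-Hochberg adjustment over all 9666 sites, with a lowest adjusted p from limma of 0.134 (0.324 with the kind of library and 0.466 with log2 breadth as a covariate). No single site therefore passed correction, and what follows describes sites that were called before it.

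**Figure D1:**
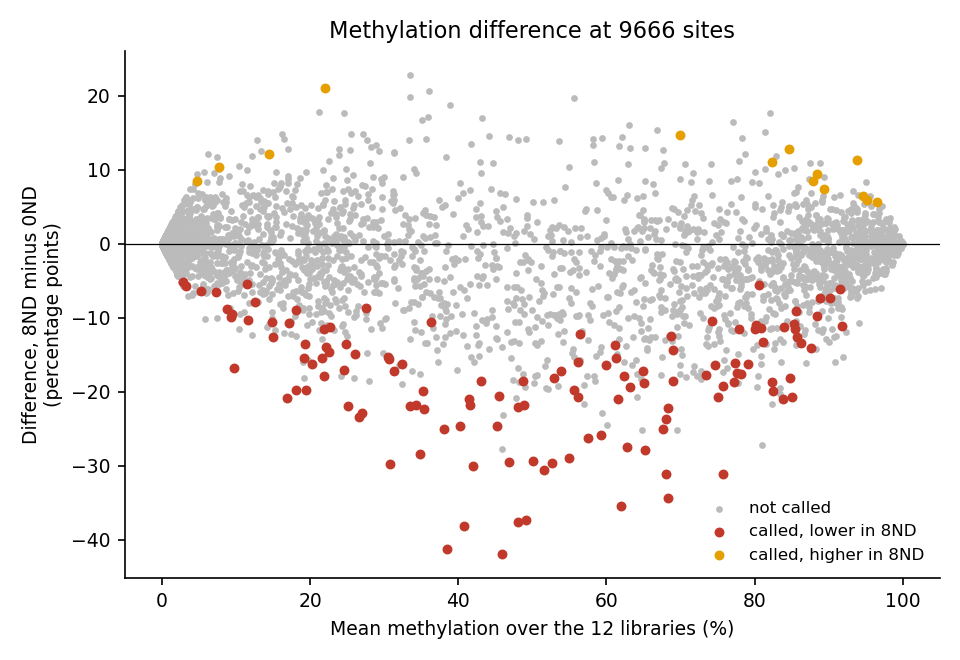
Each point is 1 of the 9666 compared sites, with its mean methylation over the 12 libraries in percent on the x axis and the difference of group means, 8ND minus 0ND in percentage points, on the y axis. Red points are the 127 sites called lower in 8ND, orange points the 14 called higher, and grey points the sites not called. The 11 falls of more than 30 points lie away from both ends of the methylation scale.

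At 12 sites (0.124%) the 6 8ND values and the 6 0ND values did not overlap, and all 12 were lower in 8ND and called. With 924 ways to assign the libraries, 0.00216 is the smallest exact permutation p possible. Any site whose groups do not overlap has this p, so it follows from how the 12 were chosen and adds no support. For sites without ties it is also the share that chance alone would separate.

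The largest difference was at position 105335197 of chromosome 7. Methylation there was 12.1%, 18.1%, 19.8%, 29.8%, 32.6% and 37.2% in the 8ND mice and 55.6%, 57.3%, 66.7%, 69.5%, 71.0% and 80.9% in the 0ND mice. All 6 8ND mice were below all 6 0ND mice by a wide gap. The means were 24.9% ± 9.69 (SD, n = 6) and 66.8% ± 9.36 (SD, n = 6), a difference of -41.9 points (limma adjusted p = 0.134), behind which lay 41 to 445 reads per library. With the fewest reads, 41 in 0ND mouse 1805, the 95% Wilson interval of its raw 80.5% ran from 66.0% to 89.8%, and in the 8ND mouse with 42 reads, 1830, that of its raw 35.7% ran from 23.0% to 50.8%, intervals that cover counting error only. Another listed site lies 10 bases away, so that the fragments read there are set by both cuts.

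The next largest was at position 50328253 of chromosome 6. The 8ND values were 0%, 4.31%, 17.8%, 26.8%, 28.6% and 29.4%, and the 0ND values 30.8%, 46.4%, 62.4%, 66.4%, 69.6% and 79.0%. The highest 8ND mouse and the lowest 0ND mouse, 1858 and 1805, were close to each other. The difference was -41.3 points (17.8% ± 12.9 against 59.1% ± 17.5, SD, n = 6 each). The 0% was 0 of 30 reads, which allows a raw share of up to 10.0%.

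Beyond these, 3 more sites fell by over 30 points without overlap. At position 92344785 of chromosome 16 methylation ran from 12.6% to 54.3% in 8ND (median 29.6%) and from 57.1% to 80.7% in 0ND (median 66.5%), a difference of -37.6 points. The 8ND value nearest to 0ND was that of mouse 1856, and without it the difference was -42.6 points. At position 103289170 of chromosome 5 it ran from 15.2% to 49.2% (median 28.1%) against 59.8% to 77.2% (median 67.0%), a difference of -37.3 points. At position 54999661 of chromosome 11 the 8ND mice fell into a lower and a higher trio, 30.3% to 34.0% and 64.1% to 72.7%, and the 0ND mice ran from 77.7% to 93.6%, with a difference of -34.3 points. The higher trio held mice 1800, 1856 and 1858, so it was not 1 kind of library.

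The other 7 non-overlapping sites differed by 10.9 to 21.8 points and covered the whole range of methylation. The site at position 52508632 of chromosome 7 had 24.1% to 47.3% in 8ND and 51.6% to 66.8% in 0ND. At position 70409455 of chromosome 14 2 8ND mice had 0% and the highest had 21.6%, against 22.9% to 35.2% in 0ND. These groups did not overlap but nearly met. A pair of sites on chromosome 2, at positions 125337757 and 125337865, was low in both diets. At the first of the pair all 8ND mice lay between 10.8% and 17.0% and all 0ND mice between 22.0% and 40.3%, and at the second between 6.60% and 25.6% and between 25.7% and 38.8%. Highly methylated sites were at position 135940916 of chromosome 1 (75.8% ± 16.8 against 93.9% ± 3.45, SD, n = 6 each), position 28040652 of chromosome 8 (80.6% ± 9.01 against 94.6% ± 4.23) and position 34896932 of chromosome 14 (79.9% ± 2.31 against 90.8% ± 4.77). At the chromosome 1 site mouse 1830 had 44.2% and the other 5 8ND mice 69.5% to 88.1%, and without mouse 1830 the difference was -11.8 in place of -18.1 points.

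**Figure D2:**
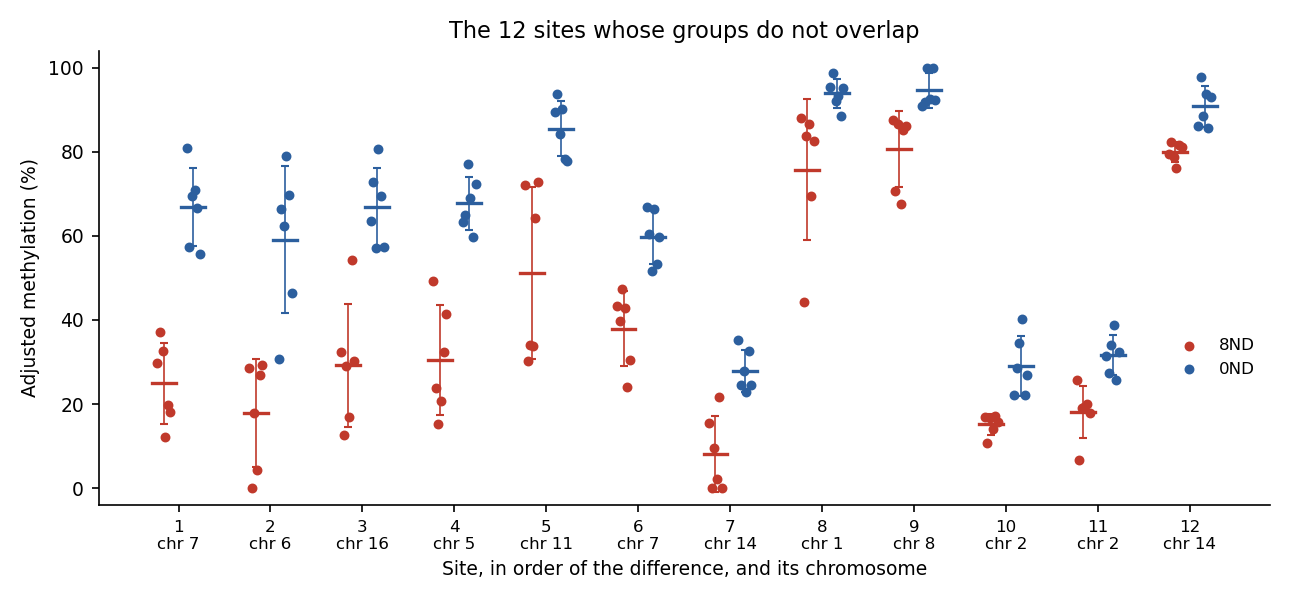
Adjusted methylation in percent (y axis) of each library at the 12 sites whose groups do not overlap, in order of the difference (x axis, with the chromosome). Points are libraries, 6 per diet, horizontal bars means and vertical bars 1 SD. Every red 8ND point lies below every blue 0ND point of its site, with the widest gap at the first site, where 37.2% was the highest 8ND value and 55.6% the lowest 0ND value.

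Many called sites came in pairs. There were 25 pairs of called sites at most 1000 bases apart, 89 to 261 bases from each other, and all 50 sites in them were lower in 8ND. Of the 127 lower sites, 108 had another compared site within 1000 bases, and at 102 of these (94.4%) the neighbour also had a lower mean in 8ND, compared with a neighbour of the same sign at 29.9% of all compared sites and at 72.3% of those with a mean methylation of 10% or more. Sites this close can lie at the 2 ends of 1 size-selected fragment, so a pair is not 2 independent measurements. The pair with the largest mean difference was chr6:50328253-50328454, with -39.7 points over both sites. At the second of these sites 8ND ran from 0% to 44.8% (median 22.1%) and 0ND from 34.2% to 81.7% (median 61.4%), so the groups overlapped there, with an exact permutation p of 0.00433. The pair chr7:105335197-105335416 had a mean difference of -35.6 points, and chr11:54999547-54999661 and chr2:163721538-163721799 had -31.6 points each. In the chromosome 2 pair, 8ND ran from 25.0% to 78.3% at the first site and 0ND from 69.8% to 85.3%, an overlap that mouse 1841 alone made. In raw percentages mouse 1841 had 64.6% there and the lowest 0ND mouse, 1820, had 66.7%, so the groups did not overlap. At the second site of this pair the exact permutation p of 0.0325 rose over 0.05, to at most 0.0736, without 8ND mouse 1830 or 1858 or 0ND mouse 1805, 1809 or 1820. The other pairs among the 8 largest were chr16:92344602-92344785, chr5:103289170-103289259, chr11:98973487-98973678 and chr8:123694140-123694313, with mean differences of -25.4 to -29.7 points. In the chromosome 8 pair 8ND ran from 0% to 38.4% at the first site and 0ND from 24.2% to 60.1%, on as few as 20 reads, and at the second site the exact permutation p of 0.0303 rose to 0.0606 without 8ND mouse 1830 or 1848 or 0ND mouse 1805, 1809 or 1820. At the second site of the chromosome 5 pair, where 8ND ran from 34.0% to 80.2% and 0ND from 65.9% to 88.1%, the exact permutation p of 0.0303 rose to at most 0.0671 without 8ND mouse 1841 or 1848 or 0ND mouse 1807, 1808 or 1809. In the chromosome 11 pair at 98973487 the 8ND mice spread from 26.3% to 78.8% and the 0ND mice only from 69.2% to 84.1%. The 8ND mice of this pair kept their order at both sites, with mouse 1848 lowest and mouse 1858 highest.

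The 14 sites higher in 8ND all overlapped between the groups. The 5 with the largest differences, chosen after their values were seen, were at position 39723724 of chromosome 8 (21.1 points), 13593194 of chromosome 7 (14.7 points), 139867741 of chromosome 5 (12.8 points), 77127314 of chromosome 10 (12.2 points) and 45614544 of chromosome 9 (11.4 points). At the first, 8ND ran from 3.46% to 63.1% and 0ND from 0% to 27.0%, with an exact permutation p of 0.0411. Its difference was 15.0 points without mouse 1856, with an exact permutation p of 0.0779. The exact permutation p of this site was over 0.05 when any of 9 of the 12 libraries was left out, the exceptions being 8ND mice 1800 and 1841 and 0ND mouse 1820. Those of the next 3 sites, from 0.0303 to 0.0346, rose to at most 0.0671 in the same way, without 8ND mouse 1830 at each of the 3 and without other single libraries at each. At the last, 5 of the 6 8ND mice were at 100% and the other at 97.2%, and 0ND ran from 67.2% to 100%. Its difference was 7.22 points without 0ND mouse 1805, whose 67.2% rested on 21 reads. Of the 14, 13 had another compared site within 1000 bases, and at none of them was this neighbour called. The neighbour was called at 1.34% of all compared sites that had one and at 5.80% of those of 10% or more methylation.

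Methylation was then averaged by the level of the site over all 12 libraries, which does not use the contrast. Most compared sites, 7423, averaged under 10%, and there the means were 0.533% ± 0.329 in 8ND and 0.509% ± 0.0920 in 0ND (SD, n = 6 each), with 10 sites called (0.135%). Mouse 1856 had 1.18% in this class and the other 11 mice 0.286% to 0.638%, and without it the difference turned from 0.0244 to -0.104 points (exact permutation p = 0.121). At the 648 sites of 30% to 70%, 8ND mice had 44.2% to 54.2% and 0ND mice 49.8% to 57.1%. The ranges overlapped, with mice 1856 and 1858 as the 8ND mice above the lowest 0ND mouse. The difference was -5.37 points (48.1% ± 4.16 against 53.5% ± 2.54, exact permutation p = 0.0303, and 0.0707 after adjustment over the 7 classes tested), and 60 sites were called (9.26%), 59 of them lower. At the 1021 sites of 70% or more, 5 8ND mice had 83.6% to 86.8% and mouse 1858 had 89.2%, against 88.0% to 90.3% in 0ND. This difference was -2.39 points (exact permutation p = 0.0130, adjusted 0.0606), with 43 sites called (4.21%), 34 of them lower. Sites of 10% to 30% differed by -1.25 points (exact permutation p = 0.496), by -2.51 points without mouse 1856 (exact permutation p = 0.106), by -0.368 points without 8ND mouse 1800 (exact permutation p = 0.818) and by -2.45 points in raw percentages. None of the 7 classes passed 0.05 after adjustment, these 4 levels and the 3 spacings given below. The unadjusted p at 30% to 70% was over 0.05, and at most 0.0563, without 8ND mouse 1800, 1830, 1841 or 1848 or 0ND mouse 1808 or 1809.

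Without mouse 1856 the difference was -6.18 points at 30% to 70% (exact permutation p = 0.0238) and -1.85 points at 70% or more (exact permutation p = 0.0281). In the spread libraries alone these classes differed by -6.50 and -3.35 points, and in the concentrated ones by -4.24 and -1.43 points. At sites with methylation of 10% or more, spread among mice was mostly wider in 8ND, and at those under 10% it was not. At 80.2% of the 648 intermediate sites the SD was larger in 8ND than in 0ND, with medians over sites of 16.7 and 11.1 points. The share was 71.3% at 10% to 30% and 77.3% at 70% or more, but 23.7% under 10% and 36.0% over all 9666 sites, where the median SD was 0 points in 8ND and 0.163 points in 0ND. The 8ND libraries also had fewer reads at a compared site, with a median of 119 (86 to 321) against 217 (128 to 251) in 0ND. Fewer reads widen counting error, whose part in the spread was not tested. Mouse 1830, with the fewest, correlated with the other 8ND libraries at r of 0.898 to 0.917. The remaining pairs of 8ND libraries had r of 0.936 to 0.977.

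**Figure D3:**
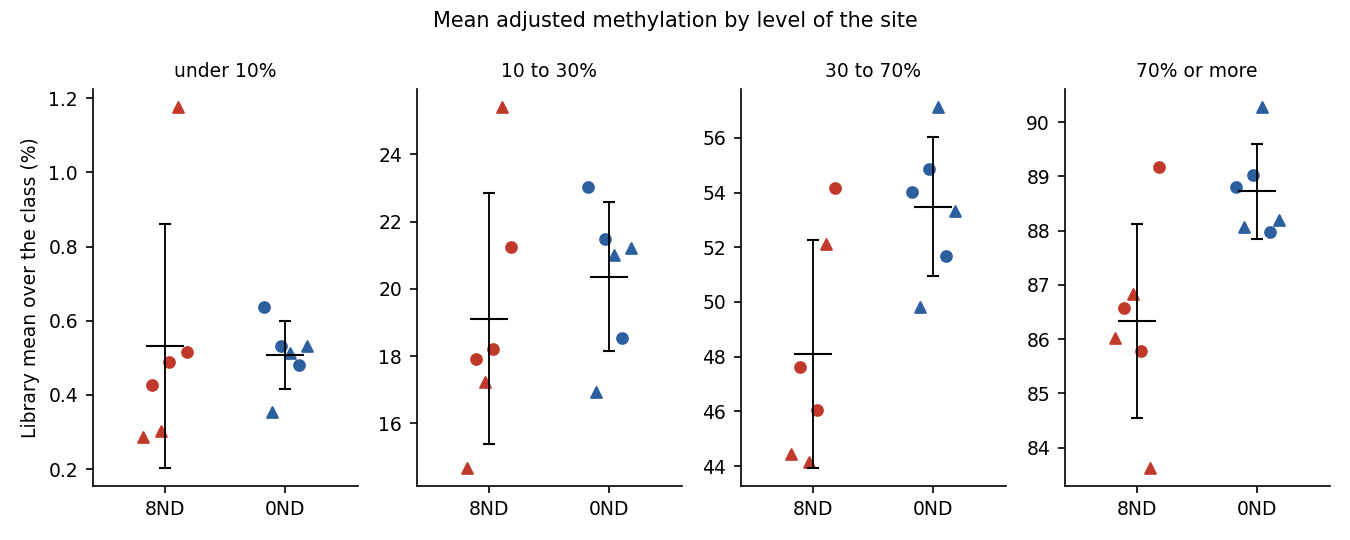
Mean adjusted methylation in percent of each library over the sites of 4 levels, a panel per level, with separate y axes that do not start at 0. Red is 8ND and blue 0ND, circles are concentrated and triangles spread libraries, and black bars give the mean ± SD of 6 libraries. At 70% or more, 5 of the 6 8ND libraries lie below all 0ND libraries, and under 10% the red triangle at 1.18% is mouse 1856.

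The share called also differed with the density of CCCGGG sites, which goes with their level. Of 3098 sites with exactly 1 other listed site within 1000 bases, 101 were called (3.26%), and their mean was 29.5% ± 1.09 in 8ND and 31.2% ± 0.848 in 0ND (exact permutation p = 0.0173, adjusted 0.0606). Of 6525 sites with 2 or more others, 37 were called (0.567%), a spacing common in CpG islands, and the means of 6.27% in 8ND and 6.43% in 0ND did not differ detectably (exact permutation p = 0.498). The 43 sites with none differed by -2.18 points (exact permutation p = 0.279), and by -3.83 points without 8ND mouse 1858 (exact permutation p = 0.00649), with 3 of them called. Of the 6525 sites with 2 or more others, 5813 averaged under 10%. Within the levels of 10% or more the shares called at sites with 1 other and with 2 or more were nearer to each other, 4.60% and 4.64% at 10% to 30%, 10.3% and 7.29% at 30% to 70%, and 4.84% and 2.47% at 70% or more. Under 10%, where most sites lay, they were 0.312% and 0.0860%. Called sites lay on all 20 chromosomes analysed. The share called was 5.68% on chromosome X, 10 of 176 sites, and 0.588% to 2.89% on the autosomes, and no chromosome mean passed 0.05 after adjustment. Mean methylation was also higher on chromosome X, 30.9% in 8ND and 30.7% in 0ND, against 8ND means of 9.20% to 17.7% on autosomes. The X share lay within the 4.21% to 9.26% called at the levels of 10% or more. The X means differed by 0.182 points (exact permutation p = 0.879).

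Over all 9666 sites the unweighted mean was 13.9% ± 0.677 in 8ND and 14.6% ± 0.413 in 0ND (SD, n = 6 each). Single libraries ran from 13.2% to 14.7% and from 13.9% to 15.0%, so the groups overlapped. The difference of -0.668 points did not pass 0.05 (exact permutation p = 0.0649, and 0.0900 when assignments were made within the 2 kinds of library). Without mouse 1856 it was -0.839 points (exact permutation p = 0.0260), without 8ND mouse 1858 -0.832 points (exact permutation p = 0.0260), without 0ND mouse 1807 -0.796 points (exact permutation p = 0.0433), and in raw percentages -1.09 points (exact permutation p = 0.0498). The adjustment raised raw values by an odds factor that was 1.06 to 1.97 in 8ND, highest in mouse 1841, and 1.02 to 1.24 in 0ND. The groups thus differ less in adjusted than in raw values. Raw percentages gave 199 calls, 189 of them lower, and 136 of these sites were among the 141.

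The second question was the part that library breadth plays. Breadth itself did not differ detectably by diet, with 24259 ± 12101 sites in 8ND and 19984 ± 2504 in 0ND (SD, n = 6 each, exact permutation p = 0.649). Without mouse 1856 the 8ND mean was 19384 ± 2206, and the difference turned from 4275 to -599.8 sites.

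Each library was first averaged over its own sites. Over all sites with 20 or more reads in that library, the mean ran from 15.5% to 36.6%, and it rose with breadth over the 12 libraries (Pearson r = 0.949, permutation p = 7.00e-05; Spearman rho = 0.853, permutation p = 0.000870; adjusted 0.000420 and 0.00522 over 6 relations). Without mice 1856 and 1808, the 2 farthest from the median breadth, r was 0.763 (permutation p = 0.0102, adjusted 0.0306) and rho 0.745 (permutation p = 0.0175, adjusted 0.0524). Sites that a library read beyond the 9666 were more methylated, at 18.0% to 42.1% per library. These means are thus set partly by which sites were read, and for diet they gave 21.6% ± 7.90 in 8ND and 20.1% ± 2.79 in 0ND (exact permutation p = 0.792). Mouse 1856 set the sign of this difference. Without it 8ND averaged 18.6% ± 3.23 (SD, n = 5), and the difference turned from 1.49 to -1.51 points (exact permutation p = 0.426), the sign of the compared sites.

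Over the same 9666 sites in all libraries the relation was weaker and did not pass 0.05 (r = 0.358, permutation p = 0.253; rho = 0.343, permutation p = 0.276), and r was 0.357 without mice 1856 and 1808. Within diets, as values only, rho was 1 over the 6 8ND libraries and 0.143 over the 6 0ND libraries, and r was 0.713 and 0.205. Within the concentrated and the spread libraries r was 0.417 and 0.434 over the compared sites, and 0.772 and 0.986 over each library's own sites, again as values only with 6 libraries each. The rho was lower over own sites, 0.6 in both kinds, and 0.143 and 0.429 over the compared sites. Mouse 1856, the broadest 8ND library, thus had the highest 8ND mean, 14.7%, and mouse 1800, the narrowest, the lowest, 13.2%. With reads of each library drawn at random down to the smallest total, 1774213, mouse 1856 had 17483 sites of 20 or more reads and the others 12810 to 16167, and its own-site mean was 20.3% in place of 36.6%.

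**Figure D4:**
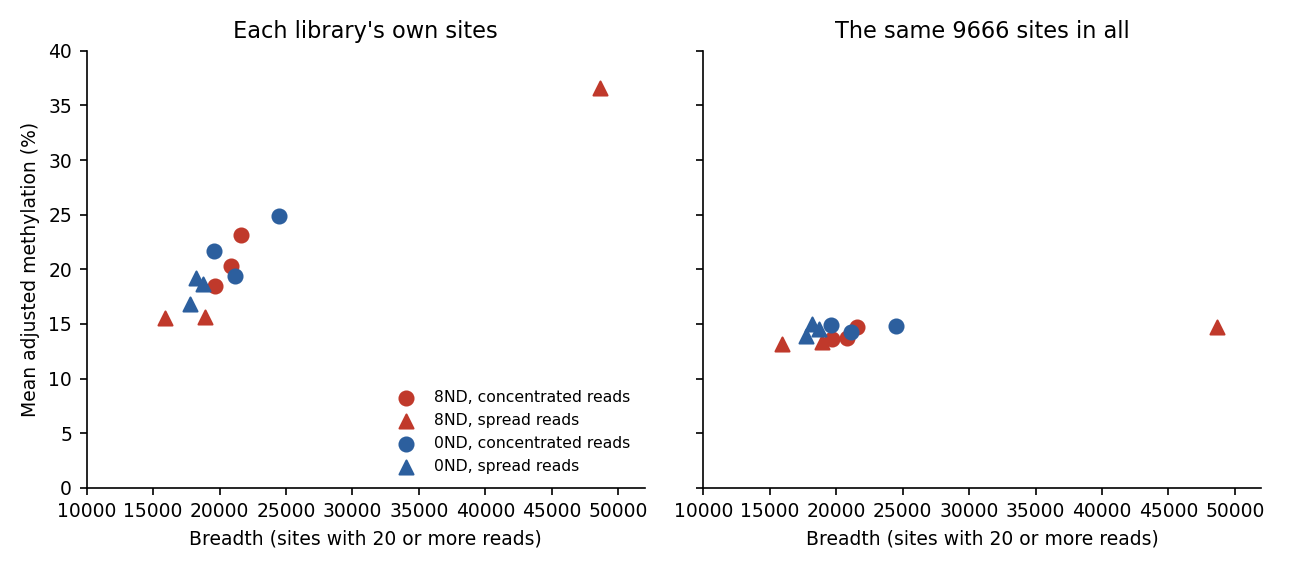
Mean adjusted methylation in percent (y axis) against breadth, the number of sites with 20 or more reads (x axis), of the 12 libraries, over each library's own sites (left) and over the same 9666 sites (right). Red is 8ND and blue 0ND, circles are concentrated and triangles spread libraries. On the left the means run from 15.5% to 36.6% and rise with breadth, and on the right all lie between 13.2% and 15.0%, with mouse 1856 at the far right of both panels.

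Leaving out mouse 1856 did not remove the lower calls. At the same sites 185 were then called, 166 of them lower, and 113 of the 141 were among them. Choosing the sites again without it gave 9711 sites with 186 calls, 167 of them lower. With log2 breadth as a covariate in limma 171 sites were called, 154 of them lower and 122 of them among the 141, and with the kind of library as a covariate 144 were called, 131 of them lower and 128 among the 141. At equal read totals 7414 sites could be compared and 95 were called, 85 of them lower. In each of these settings between 89.5% and 91.0% of the calls were lower in 8ND.

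**Figure D5:**
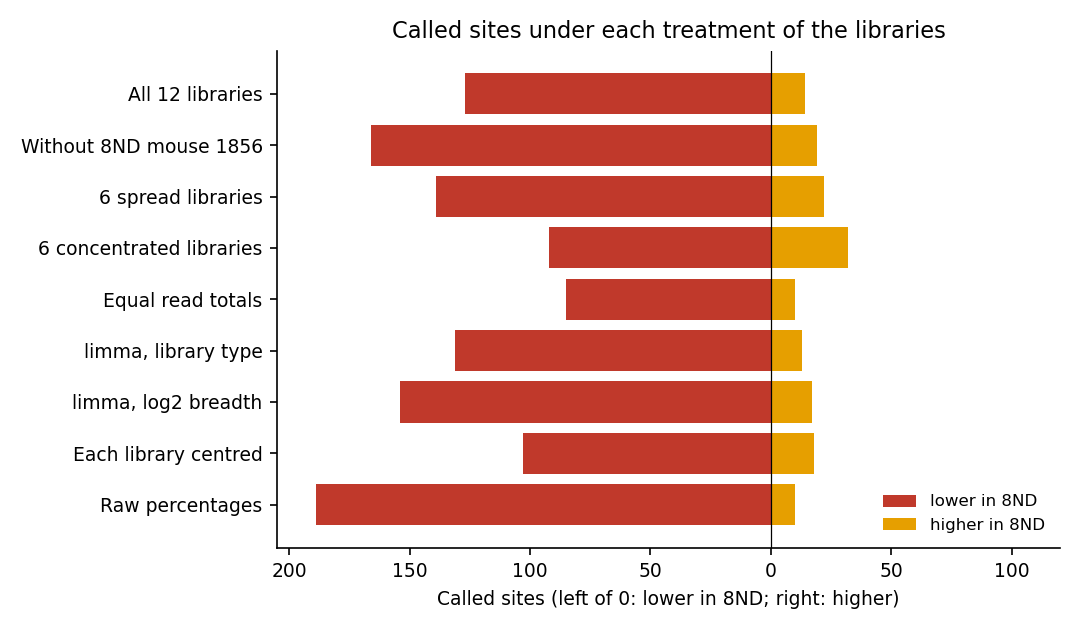
Number of called sites (x axis, counted to the left of 0 where lower and to the right where higher in 8ND) under each treatment of the libraries (rows). The library type is the kind of library, concentrated or spread. Lower calls outnumber higher ones in each row, from 85 at equal read totals to 189 in raw percentages, and the concentrated libraries have the most higher calls, 32.

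The kind of library, compared across diets, gave nearly as many calls as diet but not in 1 direction. Between the 6 concentrated and the 6 spread libraries 122 sites were called (1.26%), 51 of them lower and 71 higher in the concentrated ones. None of them was among the 141 called for diet. Because each kind held the diets in equal number, a difference by kind widens the spread within a diet, and the reverse. Few shared calls are therefore built into the design, and their absence does not show that the diet calls are free of library kind. The means over all compared sites differed by 0.187 points (exact permutation p = 0.623). The number of calls for diet alone was thus close to that for a split unrelated to diet, while the share in 1 direction was 90.1% for diet and 41.8% for the kind of library, a difference that was not tested.

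Called sites of one kind of library were then read in the other, in which all mice differ. The 3 against 3 spread libraries gave 161 calls, 139 of them lower, and the concentrated ones 124, 92 of them lower, with 12 sites called in both. These were 7.45% of the spread calls, against 1.28% of all compared sites and 4.81% of those of 10% or more methylation called in concentrated libraries, and 9.68% of the concentrated calls, against 1.67% and 6.82% called in spread libraries. Of the 139 sites called lower in spread libraries 64.0% had a lower 8ND mean in the concentrated ones too, where 55.6% of all compared sites of 10% or more methylation did. Of the 92 called lower in the concentrated libraries 62.0% were lower in the spread ones, where 65.7% of all sites of 10% or more were. These shares of direction are near those of all sites with methylation to lose. With 3 libraries per diet the smallest exact p is 0.1, and the diet difference of the means was -0.732 points in spread and -0.604 points in concentrated libraries (exact permutation p = 0.30 and 0.20), which differed from each other by 0.128 points (exact permutation p = 0.875).

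The first cohort gave the same diets in other libraries, but 8 of its 11 8ND and 0ND mice, 5 and 3, are also among the 12 here, so the cohorts are not independent. Libraries of the same mouse could differ at the called sites, which were chosen in the second cohort. The mean difference, second minus first cohort, was -15.1 points in 8ND mouse 1830 and -12.5 points in 8ND mouse 1848. In the other shared mice it was -3.94 to 5.345 points. Over 119 called sites the median absolute difference had a median of 8.34 points over same-mouse pairs. Over pairs of different mice on 1 diet it was 8.36 points. Of the 127 lower sites 105 were compared in the first cohort. At 92 of them (87.6%) 8ND was lower there as well, against 71.6% of all compared sites of 10% or more methylation, and 44 (41.9%) were called there, against 17.9%. Of the mice of that comparison 3 were new, 1 8ND mouse and 2 0ND mice. At 76 of the 105 lower sites covered in all 3 (72.4%) the new 8ND mouse was below both new 0ND mice, against 54.9% of all compared sites of 10% or more. Of the 14 higher sites, 5 (35.7%) were above both new 0ND mice in the new 8ND mouse, against 22.1% of those sites, 6 (42.9%) were below both, against 54.9%, and 9 had a lower 8ND mean in the first cohort.

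At the site of the largest difference, position 105335197 of chromosome 7, the new 8ND mouse had 37.4% and the 2 new 0ND mice 60.3% and 67.6%. Over the first cohort it averaged 31.6% ± 11.5 in 8ND (SD, n = 6), 57.6% ± 9.10 in 0ND (SD, n = 5) and 33.7% ± 10.1 on 2 mg/kg FA (SD, n = 7). In lesions of the second cohort it was 25.9% ± 8.73 on 8 mg/kg (SD, n = 7 lesions of 6 mice) and 19.3% ± 15.9 on 0 mg/kg (SD, n = 6). At this site mean levels in lesions of both diets were thus near those of 8ND, and 0ND of both cohorts had the highest means. At position 50328253 of chromosome 6 the order was alike, with 31.1% in 8ND, 64.8% in 0ND and 39.3% on 2 mg/kg FA in the first cohort, and 16.4% and 13.8% in the 8 and 0 mg/kg lesions. Lesion means were not near those of 8ND at every non-overlapping site. At position 54999661 of chromosome 11 they were 67.6% and 74.0% on 8 and 0 mg/kg, against 51.2% in 8ND of the second cohort. At position 28040652 of chromosome 8 both were 91.9%, against 80.6%. At position 70409455 of chromosome 14 they were 22.2% and 33.8%, against 8.16%. In the first cohort the 8ND mean was the lower one at 11 of the 12 non-overlapping sites, with mice shared between the cohorts. The exception was position 103289170 of chromosome 5, with 60.8% ± 8.73 in 8ND (SD, n = 5 covered) and 58.6% ± 9.21 in 0ND (SD, n = 4 covered), where the ranges of 51.4% to 69.5% and 50.2% to 69.1% lay over each other. At others the difference there was within the spread or did not pass 0.05. At position 28040652 of chromosome 8, 8ND averaged 93.1% ± 4.42 and 0ND 96.6% ± 0.895 (SD, n = 5 covered each), with overlapping ranges. At position 34896932 of chromosome 14 the means were 82.8% and 90.4% (exact permutation p = 0.0541). At position 70409455 of chromosome 14 the first cohort had 16.8% in 8ND and 17.9% in 0ND (exact permutation p = 0.660), and at position 52508632 of chromosome 7 it had 49.3% and 54.6% (exact permutation p = 0.403).

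Of the 5 sites with the largest non-overlapping differences between 8ND and 0ND in the first cohort, 4 could be compared here. Both sites of the chromosome 6 pair above were called again. At position 80548491 of chromosome 17, 8ND ran from 14.8% to 45.4% (median 34.2%) and 0ND from 33.3% to 67.6% (median 52.1%), a difference of -21.7 points with overlap of the groups (exact permutation p = 0.0130). At position 139078272 of chromosome 4 both diets held a mouse at 100% and the lowest values were 18.0% and 35.7%, so that the difference of -22.9 points was within the spread (SD 30.1 and 21.6 points, exact permutation p = 0.16). Without 8ND mouse 1830, whose 100% rested on 28 reads, 8ND was lower by more, with -33.3 points and an exact permutation p of 0.0281. The fifth site, position 80548379 of chromosome 17, had 17 reads in 1 library and was not compared.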

How the data were processed

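DREAM libraries of laser-microdissected non-neoplastic colon cells were grouped by cohort, tissue and diet from the sample labels, 1 library per mouse. The authors mapped reads (Bowtie2 and SAMtools, per the labels, build mm9) and deposited, per site, read counts for each methylation state, a raw percent methylated and a percent adjusted with spiked standards. Within a library, the odds of the deposited adjusted percent were checked to be those of the raw percent times 1 constant (to within 0.0144 points). PCR copies are not marked by molecular identifiers, so intervals cover counting error only. The comparison, its sites and settings were chosen with earlier results of these data known.

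Sites read 20 times or more in each of the 12 libraries were compared in Python 3.11.15 (numpy 2.4.6, scipy 1.17.1, pandas 2.3.3) and with limma 3.58.1 in R 4.3.3. Calls needed p under 0.05, unadjusted, in the two-sided test of group means (variances taken as equal) and a difference over 5 percentage points. Library means were tested by exact permutation, two-sided, over 924 assignments, or 400 within the 2 kinds of library (8% of reads on the 100 most-read sites as the limit), and correlations by 100000 permutations. Nothing says that libraries were made in separate batches. Named sites were the called sites without overlap between groups (10 per direction), the 8 pairs of called sites with the largest mean difference, and the 5 leading sites of the first cohort. The last 2 non-overlapping sites, the 5 highest in 8ND, the comparison of library kinds, calls of 1 kind read in the other, own-site means without mouse 1856, and the comparison of breadth and level with lesions were added after the data were seen. Other settings were reads minimums of 10 and 50, coverage in 4 libraries per group, raw percentages, leaving out each library, equal read totals, centring, covariates, a quasi-binomial model of read counts and a difference over 10 points. The per-site tests (equal variances, exact permutation, quasi-binomial and limma without covariates) were tested on simulated data. Tests of library means, correlations and limma with covariates were not. Sites were assigned to no gene, because no mm9 annotation was used here.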

Additional observations from a re-analysis of the deposited data

Results flagged for a closer look

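Each group of 6 values was searched for a value whose gap to the nearest other exceeded Dixon's 95% critical share of the group's range. Of 76 such sets, 5 had one, where chance gives about 4. Breadth of the 8ND library of mouse 1856 was 48630 sites, and that of the other 5 libraries 15893 to 21585. The mean of this library over its own sites was 36.6%, and those of the others 15.5% to 23.1%. The adjustment odds factor of 8ND mouse 1841 was 1.97, and those of the other 8ND libraries 1.06 to 1.37. At position 45614544 of chromosome 9 8ND mouse 1800 had 97.2% and the other 5 had 100%. At position 123694313 of chromosome 8 0ND mouse 1808 had 9.65% and the others 46.1% to 66.1%, with 54 reads there in mouse 1808.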

How the results depend on the processing

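No paired analysis was possible because no mouse was in both diet groups, so that mouse numbers pair no samples here. Calls numbered 141 in the comparison as reported and 111 to 185 when 1 library was left out, with 84.2% to 92.4% of them lower in 8ND. They numbered 53 of 5383 sites at 50 or more reads, 260 of 15366 sites with coverage in 4 libraries per group, 231 with the quasi-binomial model (102 shared with the 141) and 0 after Benjamini-Hochberg adjustment. The first of these settings tests fewer sites and the second more. Lower sites were 95.0% of calls in raw percentages, 94.0% with a difference over 10 points, 82.7% with the quasi-binomial model and 74.2% in the concentrated libraries. The mean difference was -0.789 points at 10 or more reads (exact permutation p = 0.0476), -1.09 in raw percentages, -0.841 with sites chosen again without mouse 1856, and -0.839 to -0.522 with 1 library left out, passing 0.05 without 8ND mouse 1856 or 1858 or 0ND mouse 1807. It was -0.334 at 50 or more reads (exact permutation p = 0.225) and -0.327 in the pooled raw share of reads (exact permutation p = 0.729). The median over sites was 0% in all 12 libraries and gave no difference. The breadth difference was -525 sites at 50 or more reads and -599.8 to 5948 with 1 library left out. With 1 library left out, the class under 10% ran from -0.104 to 0.0737 points (raw -0.0196), that of 10% to 30% from -2.51 to -0.368, that of 30% to 70% from -6.59 to -4.59 (p 0.0108 to 0.0563), and isolated sites from -3.83 to -1.53. Centring each library left 121 calls, 103 of them lower. At position 139867741 of chromosome 5 the difference was -2.77 points in the first cohort, the opposite sign. The cause of these changes was not tested. Of the other differences, those at or above 70% and at sites with 1 neighbour kept their sign and their side of 0.05 with each library left out and in raw percentages. Across the named sites and their alternatives, 364 values kept their direction and their side of 0.05, 46 kept their direction but no longer passed 0.05, and 2 newly passed it.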
